A study of Mus musculus with 9 samples.

Results

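Txnip and the arrestin domain-containing genes Arrdc1, Arrdc2, Arrdc3 and Arrdc4 belong to the alpha-arrestin family. They were chosen by symbol and matched by Ensembl identifier to the mouse count table, in which all 5 had a row among 22048 genes, and 4 of the 5 passed the filter on low counts. The levels of these genes were measured in islets of the pancreas, taken from outbred ICR mice and cultured for 3 days at 11.8, 20 or 35 mM glucose, with 3 libraries at each concentration. All islets shared RPMI medium with serum and antibiotics, 11.8 mM being the glucose of the plain medium, and the islets came from 9 mice. The labels do not say whether each library came from its own mouse or from pooled islets, so p-values speak only to the spread among these samples, and that spread may be technical. The treatment text names 25 mM as the highest concentration, whereas titles, sample characteristics and the design text name 35 mM, the value used here.

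Alpha-arrestins are cytosolic adaptors with paired arrestin-fold domains. Short proline-rich motifs in their tails bind ubiquitin ligases of the Nedd4 family, by which cargo proteins of the cell surface are taken up and sorted. Txnip also binds and inhibits thioredoxin and lowers glucose uptake through the transporter Glut1, and in beta cells its gene is known to respond to glucose through the transcription factor ChREBP. Arrdc4 is known in other cell types as a glucose-responsive relative of Txnip that acts on glucose uptake. Arrdc3 is known as an adaptor of adrenergic receptor trafficking, and Arrdc1 drives the budding of small vesicles from the plasma membrane.

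Libraries held 3228648 to 4559561 gene reads and 13366 to 13923 detected genes. The 8 beta cell markers, led by the insulin genes, took 50.3% to 58.8% of the gene reads over the 9 libraries, as the tissue label would have it. Mafa, 1 of the 8, was nearly absent and too low to be tested. The 5 alpha cell markers took 1.40% to 2.02%. Of the 12 acinar markers 11 had a row, and these took 0.327% to 1.20% at 11.8 mM, 0.685% to 1.23% at 20 mM and 0.647% to 1.09% at 35 mM. The 5 duct markers took 0.0253% to 0.0293% at 35 mM, against 0.0145% to 0.0241% at 11.8 mM, without overlap. Krt7, the highest of them in level, had a log2 fold change of 0.44. Of the 4 duct genes tested 2 had positive and 2 negative values. The 6 endothelial markers took 0.000919% to 0.00115% at 35 mM, against 0.00148% to 0.00167% at 11.8 mM, also without overlap. Only 3 of these were tested, all with negative values. The 8 immune cell markers took 0.00710% to 0.00776% at 20 mM, against 0.00858% to 0.0104% at 11.8 mM, again without overlap, and 0.00617% to 0.0129% at 35 mM. Of single genes tested, 8.22% had higher values at 35 than at 11.8 mM without overlap. No such share was computed for lower values or for sums of markers. The 8 fibroblast markers took 0.0157% to 0.0430% over all libraries, with overlap. No single duct, immune, endothelial or acinar marker was called in any of the 3 comparisons by edgeR. At 35 against 11.8 mM 4 of 7 beta cell markers tested had positive values, and 1 of 5 alpha cell markers. Ucn3 of the beta cell list stood lowest of its list, at -0.42, and was not called (adjusted p = 0.178 by edgeR). Of the islet markers, Iapp, the amyloid peptide of beta cells, rose at 35 against 11.8 mM (log2 fold change 0.63; adjusted p = 0.00865 by edgeR). Ttr, transthyretin of the alpha cell list, rose at 35 (0.67; adjusted p = 0.00527 by edgeR) and at 20 against 11.8 mM (0.60; adjusted p = 0.0489 by edgeR). The part of these shifts in the results on the alpha-arrestins was not tested, beyond a fit with an acinar covariate. In whole islets, fewer cells of a type and less RNA per cell cannot be told apart. Each library was the sum of 3 barcoded sub-libraries. In 1 sub-library of 11.8 mM replicate 1 Ins1 took 11.8% of the reads, against 26.3% in the others of that sample, and in 1 of 35 mM replicate 1 Ins2 took 10.6%, against 29.0%.

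Txnip (ENSMUSG00000038393) lies on the forward strand of chromosome 3, at chr3:96557957-96561883 of GRCm38. Arrdc4 (ENSMUSG00000042659) lies on the reverse strand at chr7:68736995-68749241. Arrdc1 (ENSMUSG00000026972) lies at chr2:24925352-24935252, Arrdc2 (ENSMUSG00000002910) at chr8:70835129-70839720 and Arrdc3 (ENSMUSG00000074794) at chr13:80883384-80896042. The family is thus spread over 5 chromosomes, and none of these genes shares exons with another member. Exons of Txnip overlap those of the antisense gene Gm15441 by 606 bases, the nearest 2041 bases from the end of Txnip. No row of the count table carried the symbol Gm15441, and the counting strand is not given in the sources used here. Whether reads of Gm15441 in that stretch were counted to Txnip therefore cannot be told. The exons of the other 4 genes overlap no annotated gene.

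Txnip and Arrdc4 are shown with the 250 bases before their RefSeq start sites (GRCm38.p6, gene strand, 5′ to 3′), since these 2 genes rose with glucose. The capitals mark each match to CACGNG or its reverse complement, the letters of a relaxed E-box; ChREBP and its partner Mlx bind carbohydrate response elements built of paired E-box-like motifs.
Txnip promoter, chr3:96557707-96557956: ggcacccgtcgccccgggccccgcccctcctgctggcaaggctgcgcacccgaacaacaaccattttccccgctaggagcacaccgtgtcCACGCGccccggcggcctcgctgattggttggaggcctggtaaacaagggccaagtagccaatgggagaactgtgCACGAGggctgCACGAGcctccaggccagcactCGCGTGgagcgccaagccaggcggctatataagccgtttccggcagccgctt
Arrdc4 promoter, chr7:68749239-68749488: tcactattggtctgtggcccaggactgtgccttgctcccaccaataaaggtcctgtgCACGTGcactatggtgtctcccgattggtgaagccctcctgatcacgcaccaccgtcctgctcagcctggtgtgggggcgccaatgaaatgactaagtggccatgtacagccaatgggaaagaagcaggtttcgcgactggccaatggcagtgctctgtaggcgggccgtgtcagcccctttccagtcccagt

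The Txnip window held 4 matches to CACGNG on either strand. Of 32851 promoter windows of this length in RefSeq, 0.244% held as many or more and 23.5% held at least 1. Of these, a pair formed the tandem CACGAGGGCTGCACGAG, which begins 85 bases before the start and fits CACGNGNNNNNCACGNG, letters found on either strand in 15 windows (0.0457%). The Arrdc4 window held 1 match, the palindrome CACGTG, 193 bases before the start, a motif in 6.02% of windows and itself a case of CACGNG. It held no match to the tandem, but 6 matches to CCAAT on either strand, a count reached in 0.0578% of windows, against 2 in the Txnip window. CCAAT was added to the search after these sequences had been seen. Arrdc1 had 2 matches to CACGNG, Arrdc2 had 1, and the 3 windows of Arrdc3 had 0. For CCAAT, Arrdc2 had 3 matches, a count reached in 2.79% of windows and above that of Txnip. Arrdc1 had 0 matches to CCAAT, and the windows of Arrdc3 had 0 or 1. Base composition differed, with 66.8% G and C in the Txnip window, 58.0% in that of Arrdc4 and a median of 52.4% over all windows. These are matches of letters only, and binding was not measured.

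The response of the family to extreme glucose was addressed first, by comparing 35 with 11.8 mM. Txnip and Arrdc4 rose, while Arrdc3 and Arrdc1 did not pass the test and Arrdc2 was too low to be tested. Txnip had 13.3, 12.5 and 13.4 CPM (counts scaled by the size of the library) in the 3 libraries at 11.8 mM, 21.9, 27.5 and 26.2 CPM at 20 mM, and 51.3, 50.8 and 44.3 CPM at 35 mM. No library overlapped with those of another concentration, and their order followed the glucose of the medium. At 35 mM Txnip averaged 48.8 ± 3.88 CPM, against 13.1 ± 0.500 CPM at 11.8 mM (SD, n = 3 each), a log2 fold change of 1.90 ± 0.18 (SE) with a 95% interval of 1.54 to 2.26 (adjusted p = 2.55e-08 in the quasi-likelihood test of edgeR, Benjamini-Hochberg adjustment over 9739 genes). It ranked 2nd by p and 7th by size of rise among the genes tested.

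Arrdc4 had 4.26, 3.24 and 4.66 CPM at 11.8 mM, 6.47, 3.79 and 5.08 CPM at 20 mM and 11.0, 9.87 and 10.8 CPM at 35 mM. The libraries at 35 mM lay above all others, while those at 20 and 11.8 mM overlapped. It averaged 10.6 ± 0.602 CPM at 35 mM, against 4.06 ± 0.733 CPM at 11.8 mM (SD, n = 3 each). The log2 fold change was 1.39 ± 0.30 (SE; 95% interval 0.77 to 2.00; adjusted p = 0.0112 by edgeR). That call was lost without 11.8 mM replicate 2 (adjusted p = 0.0658 by edgeR) and without 35 mM replicate 1 (adjusted p = 0.0653 by edgeR), the change standing at 1.24 and 1.35. Of the 4 members tested 2 were called, both higher, against 0.863% of all genes tested called in either direction and 0.626% called higher. In both genes the libraries did not overlap, with higher values at 35 mM, as in 8.22% of all genes tested.

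**Figure D1:**
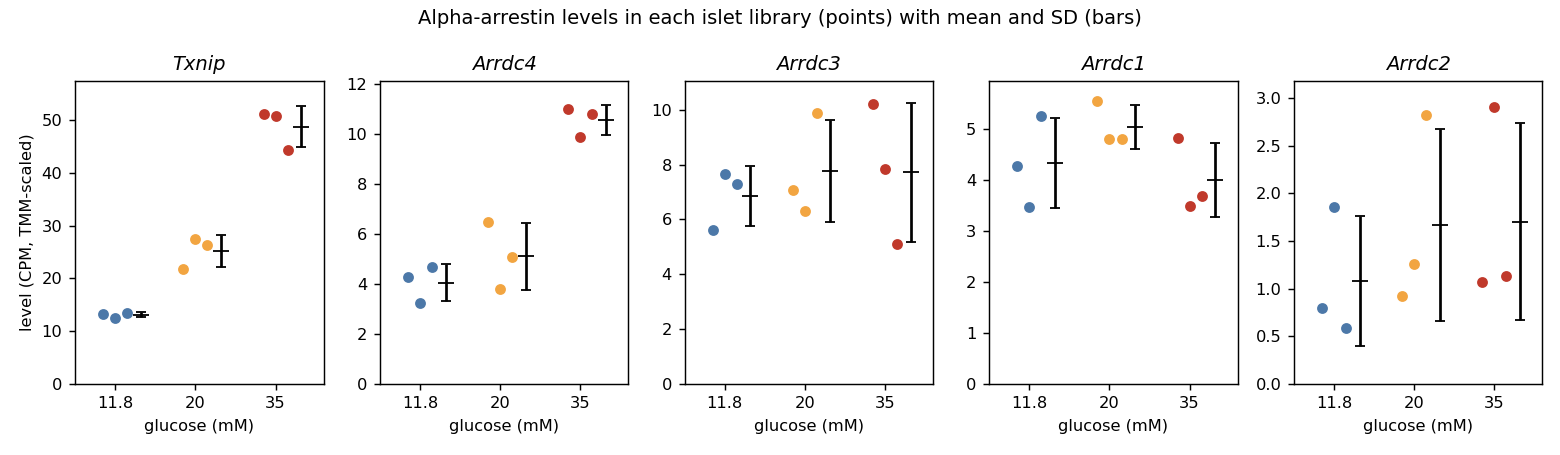
Level of each alpha-arrestin gene in CPM (vertical axes, a scale of its own for each gene) at 11.8, 20 and 35 mM glucose (horizontal axes). Points are libraries and bars give mean and SD of 3. The Txnip libraries at 35 mM lie between 44.3 and 51.3 CPM, those of Arrdc4 between 9.87 and 11.0 CPM, and the groups of the other genes overlap.

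Arrdc3, the adaptor of receptor trafficking, had 5.60, 7.64 and 7.28 CPM at 11.8 mM, 7.08, 6.32 and 9.87 CPM at 20 mM and 10.2, 7.84 and 5.11 CPM at 35 mM. The ranges overlapped at all 3 concentrations, and both the highest and the lowest library of all stood at 35 mM. Its log2 fold change at 35 against 11.8 mM was 0.17 ± 0.30 (SE; 95% interval -0.43 to 0.78; adjusted p = 0.904 by edgeR). Arrdc1, the vesicle budding gene, had 4.26, 3.47 and 5.24 CPM at 11.8 mM, 5.54, 4.80 and 4.79 CPM at 20 mM and 4.83, 3.48 and 3.69 CPM at 35 mM. Its ranges overlapped as well, with a log2 fold change of -0.09 ± 0.35 (SE; 95% interval -0.81 to 0.62; adjusted p = 0.966 by edgeR) at 35 against 11.8 mM. The upper bounds lay below the lower bound of Txnip, though not below that of Arrdc4 for Arrdc3, and the difference between genes was not tested.

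Arrdc2 was represented by 3, 8 and 2 reads at 11.8 mM, 3, 5 and 10 reads at 20 mM and 4, 10 and 4 reads at 35 mM. The summed 13, 18 and 18 reads carry exact Poisson 95% intervals of 6.92 to 22.2, 10.7 to 28.5 and 10.7 to 28.5 reads, which overlap. With no filter on low counts its log2 fold change was 0.59 ± 0.70 (SE; adjusted p = 0.848 by edgeR) at 35 against 11.8 mM. No change was detected, and with this error a change in either direction remains possible. Arrdc5, a further alpha-arrestin outside the 5 listed, had 0 reads in all 9 libraries. Each library taken alone allows up to 3 reads, or 0.694 to 0.924 CPM. The bound from all 9 together would be lower and was not computed. Poisson intervals and the floor per library cover counting error only. They take reads as independent, whereas the random identifiers were not collapsed, so they may be too narrow.

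The response to moderately raised glucose was addressed by comparing 20 with 11.8 mM, and Txnip was the member that rose. It averaged 25.2 ± 2.97 CPM at 20 mM, against 13.1 ± 0.500 CPM at 11.8 mM (SD, n = 3 each), a log2 fold change of 0.95 ± 0.18 (SE; 95% interval 0.58 to 1.33; adjusted p = 0.0116 by edgeR). Of the 4 members tested 1 was called, against 0.185% of all genes tested called in either direction and 0.154% called higher, and it was also the member whose libraries did not overlap, with higher values at 20 mM, as in 6.79% of all genes. The call was lost without 20 mM replicate 2 (adjusted p = 0.107 by edgeR), without 20 mM replicate 3 (adjusted p = 0.0631 by edgeR) and with only these 2 concentrations in the fit (adjusted p = 0.0507 by edgeR), the change staying between 0.88 and 0.95. Arrdc4 averaged 5.11 ± 1.34 CPM at 20 mM, against 4.06 ± 0.733 CPM at 11.8 mM (log2 fold change 0.33 ± 0.33 SE; 95% interval -0.34 to 1.00; adjusted p = 0.883 by edgeR). Arrdc3 and Arrdc1 had log2 fold changes of 0.17 ± 0.30 and 0.23 ± 0.34 (SE), and neither passed. Acinar markers stood higher at 20 mM in all 11 genes tested, with a median log2 fold change of 0.38, none called, and with their summed level as a covariate the Txnip change was 0.99 (adjusted p = 0.0340 by edgeR). DESeq2 gave Txnip no adjusted p here, since it set genes of this level aside.

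Between the raised concentrations, 35 against 20 mM, Txnip rose again. It averaged 48.8 ± 3.88 CPM at 35 mM, against 25.2 ± 2.97 CPM at 20 mM (SD, n = 3 each; log2 fold change 0.95 ± 0.16 SE; 95% interval 0.61 to 1.28; adjusted p = 0.0075 by edgeR). Txnip was 1 of 3 genes called among all those tested, or 0.0308%, as was Dlk1, an imprinted relative of the Notch ligands. Of the members, Txnip and Arrdc4 had libraries that did not overlap, with higher values at 35 mM, as did 6.15% of all genes. The call of Txnip was lost without 20 mM replicate 1 (adjusted p = 0.175 by edgeR), 20 mM replicate 3 (0.0802), 35 mM replicate 1 (0.111) or 35 mM replicate 2 (0.122), the change staying between 0.86 and 0.98. Txnip was the 1 gene called in all 3 comparisons, which share their libraries in pairs. Arrdc4 had a larger but less precise change of 1.06 ± 0.29 (SE; 95% interval 0.46 to 1.65), ranked 15th by p among 9739 genes, and did not pass (adjusted p = 0.569 by edgeR). Arrdc3 stood at 0.0004 ± 0.30 and Arrdc1 at -0.32 ± 0.35 (SE), and neither passed. Acinar markers stood lower at 35 mM in all 11 genes tested, with a median of -0.30, none called, and with their level as a covariate the Txnip change was 0.94 (adjusted p = 0.0128 by edgeR).

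**Figure D2:**
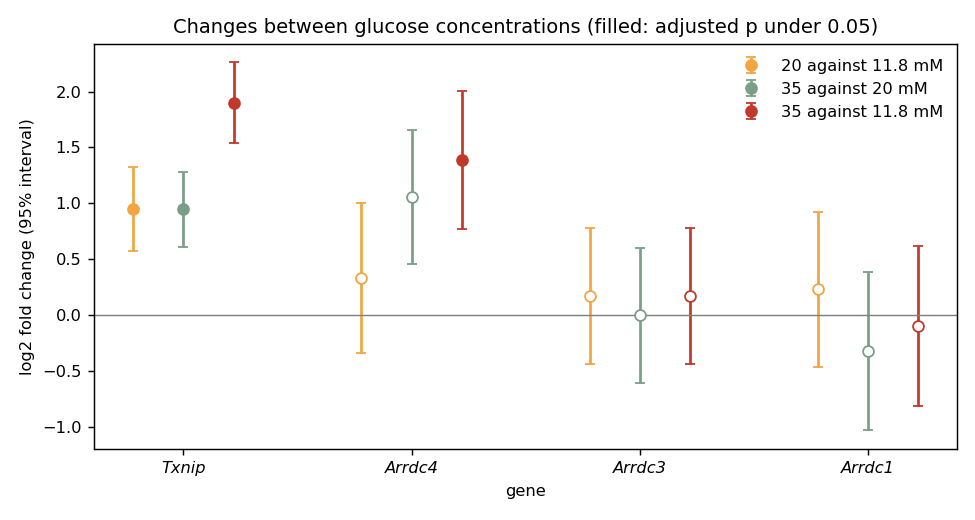
Log2 fold change (vertical axis) of the 4 genes tested (horizontal axis) for 20 against 11.8 mM, 35 against 20 mM and 35 against 11.8 mM glucose. Bars are 95% intervals and filled points have an adjusted p under 0.05. Txnip has nearly equal values of 0.95 for both steps, whereas Arrdc4 has 0.33 for the lower and 1.06 for the upper step.

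The 2 steps of glucose were of like size on a log scale, 1.69-fold for 11.8 to 20 mM and 1.75-fold for 20 to 35 mM. Per doubling of glucose the log2 level of Txnip changed by 1.25 over the lower step and by 1.17 over the upper, and that of Arrdc4 by 0.43 and 1.31. The change over the upper step minus that over the lower was -0.0034 ± 0.30 (SE; 95% interval -0.62 to 0.61; adjusted p = 0.998 by edgeR) for Txnip and 0.73 ± 0.54 (SE; 95% interval -0.38 to 1.84; adjusted p = 0.933 by edgeR) for Arrdc4. Neither passed, so an unequal response over the steps was not shown for either gene. In this contrast 1 gene, or 0.0103% of those tested, was called, Pdyn, the precursor of an opioid peptide, named here after its value was seen. Over the 9 libraries the log2 levels of Txnip and Arrdc4 had a Pearson r of 0.865, those of Txnip and Arrdc3 one of 0.219 and those of Txnip and Arrdc1 one of -0.179. These points share the 3 concentrations and their libraries, and the values are descriptions.

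The share of Txnip in the reads of the family stood higher at the raised concentrations. It took 44.6% ± 2.27 of these reads at 11.8 mM, 56.3% ± 5.84 at 20 mM and 67.1% ± 1.49 at 35 mM (SD, n = 3 each). The shares are of reads from transcript ends, not divided by length, and were not tested. The 3 sub-libraries of each sample were numbered here as barcode sets 1 to 3, by column order. No label names these sets as a batch. In barcode set 1 alone the Txnip share was 67.2% at 35 mM, against 67.3% at 20 mM. It was thus not higher over the upper step there. Arrdc4 held 13.8% ± 2.16, 11.5% ± 3.52 and 14.6% ± 1.77 at the 3 concentrations in the same order. Arrdc3 had 23.3% ± 3.40, 17.2% ± 2.90 and 10.5% ± 2.58, and Arrdc1 14.7% ± 2.39, 11.4% ± 1.74 and 5.50% ± 0.772. The lower shares of Arrdc3 and Arrdc1 at 35 mM stand beside CPM levels that did not pass the test in either gene. Together the 5 genes had 29.4 ± 1.57, 44.8 ± 3.58 and 72.8 ± 6.90 CPM at 11.8, 20 and 35 mM.

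**Figure D3:**
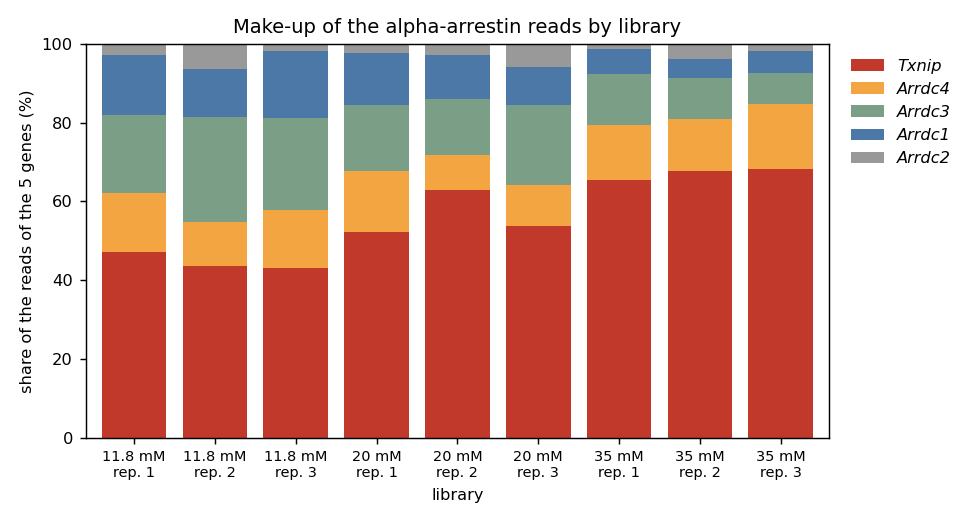
Share of each gene, in percent, in the reads of the 5 alpha-arrestin genes (vertical axis) in each of the 9 libraries (horizontal axis, ordered by glucose). Txnip takes 43.0% to 47.2% in the libraries at 11.8 mM, 52.2% to 63.0% at 20 mM and 65.4% to 68.1% at 35 mM.

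The spread of the members between libraries of a concentration was set against that of counting. The summed squared deviation of the counts from their group rate, divided by 6 degrees of freedom, was 0.793 of the counting error in Txnip, 0.642 in Arrdc4 and 0.435 in Arrdc1, against 1.78 in Arrdc3 and 2.01 in Arrdc2. The counting error takes reads as independent, whereas the random identifiers were not collapsed. With so few degrees of freedom the ratios are imprecise, and differences between genes were not tested. The barcoded sub-libraries repeat the measurement within a sample. In the 9 sub-libraries of each concentration Txnip ranged from 5.49 to 25.0 CPM at 11.8 mM, 18.6 to 31.2 CPM at 20 mM and 40.8 to 57.7 CPM at 35 mM. Those at 35 mM did not overlap with the rest, whereas those at 20 and 11.8 mM did. Arrdc4 ranged from 1.10 to 7.68, 1.04 to 9.37 and 7.84 to 14.8 CPM in the same order, on 1 to 17 reads each. Without the 2 sub-libraries of unlike insulin share, the log2 fold changes at 35 against 11.8 mM were 1.93 for Txnip (adjusted p = 2.61e-08 by edgeR) and 1.33 for Arrdc4 (adjusted p = 0.0295 by edgeR).

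**Figure D4:**
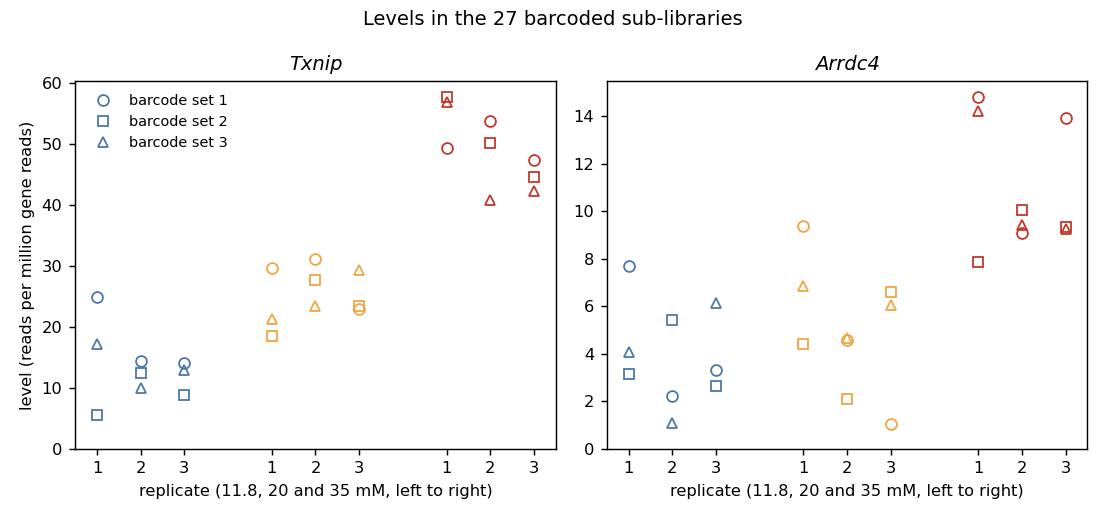
Level of Txnip and Arrdc4 (vertical axes, CPM of gene reads without TMM scaling) in the 3 barcoded sub-libraries of each sample, by replicate and concentration (horizontal axes). For Txnip all sub-libraries at 35 mM, 40.8 CPM or more, lie above all at 20 mM, 31.2 CPM or less.

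The genes around the family were read from 7 lists with 52 genes, of which 41 were tested. In none of the 3 comparisons was any of these called by edgeR. DESeq2 called none either, but gave an adjusted p to only 22 of the 52 at 35 against 11.8 mM, 10 at 20 against 11.8 mM and 48 at 35 against 20 mM. An unadjusted p under 0.05 by edgeR was found in 6 of the 41 (14.6%) at 35 against 11.8 mM, where 10.5% of all genes tested had one. The count was 4 (9.76%, against 7.97% of all genes) at 20 against 11.8 mM and 1 (2.44%, against 5.29%) at 35 against 20 mM. The factors that read out glucose did not pass at 35 against 11.8 mM: Mlxipl, which encodes ChREBP, averaged 65.7 ± 7.51 CPM at 35 mM, against 80.2 ± 10.9 CPM at 11.8 mM (SD, n = 3 each; log2 fold change -0.28 ± 0.15 SE; adjusted p = 0.542 by edgeR). Mlxip, the gene of the related MondoA, stood at 0.19 ± 0.31 and their partner Mlx at 0.0058 ± 0.19. The Mlx value is uncertain, since the gene's end overlaps Psmc3ip on the opposite strand.

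The thioredoxin system, the redox relay that Txnip inhibits, had 12 genes tested and none called. At 35 against 11.8 mM 11 of 12 had a positive value, with a median log2 fold change of 0.15 against -0.0027 over all genes tested. The number was 9 of 12 at 20 against 11.8 mM (median 0.10) and 7 of 12 at 35 against 20 mM (median 0.05). The share of positive values over all genes was not computed. The value of Prdx2, among these genes, is uncertain, since Junb overlaps it near its end on the opposite strand. Txn2, the mitochondrial thioredoxin, averaged 34.2 ± 3.82 CPM at 35 mM, against 24.5 ± 3.01 CPM at 11.8 mM (SD, n = 3 each; log2 fold change 0.48 ± 0.17 SE; adjusted p = 0.261 by edgeR). Txn1, the cytosolic thioredoxin, stood at 0.22 ± 0.14, and Srxn1, sulfiredoxin, at 0.31 ± 0.13. Of 3 tested genes of direct partners, Map3k5, the stress kinase held by thioredoxin, stood at 0.45 ± 0.26 and Prkaa1, a catalytic subunit of AMP-activated kinase, at -0.13 ± 0.22. None passed.

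Of the Nedd4 family ligases and adaptors, 9 of 11 were tested, with 4 positive and 5 negative values at 35 against 11.8 mM and a median of -0.07. Smurf2 stood at -0.31 ± 0.26 and Wwp1 at 0.25 ± 0.40 (SE). Of the cargo and vesicle genes 7 of 10 were tested, with a median of 0.12. Insr, the insulin receptor, had the lowest value, -0.85 ± 0.39 (adjusted p = 0.426 by edgeR), at 2.82 ± 0.900 CPM at 35 mM, against 5.14 ± 1.24 CPM at 11.8 mM. Vps4a, an ATPase of vesicle budding, stood at 0.48 ± 0.25, and Slc2a2, the main glucose transporter of mouse beta cells, at -0.28 ± 0.15. Of 8 other genes of the arrestin fold 5 were tested, among them Vps26a (-0.41 ± 0.15) and Dscr3 (-0.74 ± 0.36), also called Vps26c, both of the sorting complexes of endosomes. Of the inflammasome genes, to which Txnip has been linked, Nlrp3 had 0 reads in all libraries. Each library taken alone allows up to 0.694 to 0.924 CPM. Il1b stood at 0.10 ± 0.33 and Pycard at -0.10 ± 0.44. None of these passed.

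**Figure D5:**
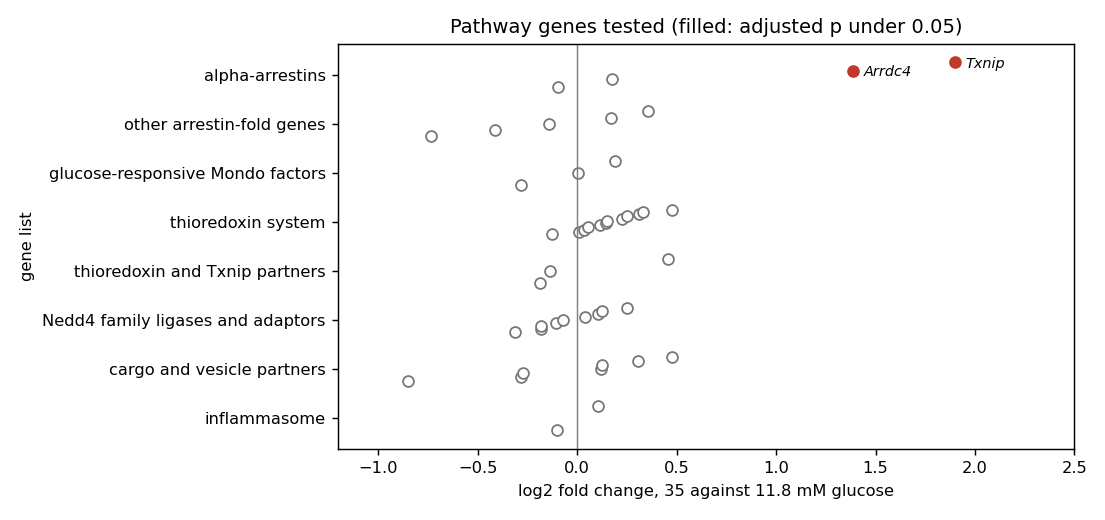
Log2 fold change at 35 against 11.8 mM glucose (horizontal axis) of each gene tested in the 8 lists, alpha-arrestins included (vertical axis; points are offset within a list for clarity). Filled points have an adjusted p under 0.05: these are Txnip at 1.90 and Arrdc4 at 1.39, while the other lists lie between -0.85 and 0.48.

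The patterns most like that of Txnip were those of Bace2, Slc30a4, Wipi1, Hap1 and Gng12, by Pearson r of log2 CPM over 9 libraries among 5315 genes whose mean reached 10 CPM. Bace2, a secretase, had r = 0.988 and levels of 202 ± 4.67, 250.2 ± 3.80 and 320 ± 8.04 CPM at 11.8, 20 and 35 mM. Its log2 fold change at 35 against 11.8 mM was 0.66 (adjusted p = 0.00265 by edgeR). Slc30a4, a zinc transporter, had r = 0.973, Wipi1, an autophagy protein, 0.972, Hap1, huntingtin-associated protein, 0.971 and Gng12, a G protein subunit, 0.969. At 35 against 11.8 mM Wipi1 (0.89), Hap1 (0.83) and Gng12 (0.57) rose, and Slc30a4 did not pass (0.45; adjusted p = 0.236 by edgeR). These genes were picked by likeness to Txnip in the same libraries, so rises among them follow largely from the pick.

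For Arrdc4, among 5316 genes, the likest reported were Dlk1 with r = 0.968, Hspa4, a chaperone of the Hsp70 family, with 0.914, Lrrfip2 with 0.899 and Bace2 with 0.899. Dlk1 had 9.18 ± 1.76, 15.6 ± 3.86 and 48.4 ± 5.16 CPM at 11.8, 20 and 35 mM (SD, n = 3 each). It rose at 35 against 11.8 mM, by 2.41 on the log2 scale (adjusted p = 8.65e-09 by edgeR), and at 35 against 20 mM, by 1.64 (adjusted p = 1.77e-05 by edgeR). The rise of Dlk1 likewise follows largely from its pick by likeness to Arrdc4 in the same libraries. All these points share libraries and concentrations, so r describes a shared order of levels over 3 concentrations and has no test.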

How the data were processed

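Libraries were made by CEL-Seq2, which tags transcript ends with a sample barcode and a random identifier, from 3 ng of RNA, with 15 and 52 bases read, per the labels' protocols. The deposited values are raw read counts per gene and sub-library; the submitters' processing notes name GRCm38.p4, cutadapt, TopHat, HTSeq and DESeq2. For these no version, annotation or counting strand is given in the sources used here. Identifiers were not collapsed, the highest count being 605402, so reads are not independent molecules.

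By the deposited sample sheet, 27 sub-libraries were summed to 9 libraries. Lines that name no gene (19.6% to 29.9% of counted reads) and spike-ins (0.0252% to 0.0322% of gene reads) were left out. From other tables, 30 columns with no clear sample were not used. Of 22048 genes, 21781 had a symbol.

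Tests used R 4.3.3 and edgeR 4.0.16 (TMM, filterByExpr, robust quasi-likelihood, 1 mean per concentration over 9 libraries, 6 residual degrees of freedom) over 9739 genes, with calls at an adjusted p under 0.05 (Benjamini-Hochberg). Standard errors are Wald errors scaled by the quasi-dispersion, and intervals are 95%. An exact permutation test of 3 against 3 cannot go below 0.1. Libraries of 1 concentration differed by more than sampling noise (chi-square per degree of freedom 3.39 to 15.6). Promoters are from RefSeq, and genes from GENCODE M21.

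The genes and lists were chosen with earlier results of these data known. Named were the 5 members, from each list the called genes or up to 2 with the smallest p at 35 against 11.8 mM, and the 5 likest patterns for Txnip and Arrdc4, without predicted genes; 1 such gene is left unreported. Txn1, Slc2a2, Mlx, Nlrp3, Pdyn, Arrdc5 and the cell type markers are named outside this rule. In 5 simulations of 35 against 11.8 mM with 9739 genes, tests called 17.6% of those changed 1.5-fold, 61.5% at 2-fold and 90.6% at 4-fold, and 21 of 46594 unchanged genes. Counts were drawn with the spread typical of a gene's level, not with the spread of each gene. The shares are over genes of all levels and do not speak for genes as low as the Arrdc members. Alternatives were other size factors and filters, DESeq2 1.42.0, a replicate block, left-out libraries, single barcode sets, removal of the 20 most abundant genes, fits of 2 concentrations, and, added after the data were seen, an acinar covariate and removal of 2 sub-libraries.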

Additional observations from a re-analysis of the deposited data

How the results depend on the processing

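The rise of Txnip at 35 against 11.8 mM kept its call in all 21 alternatives (log2 fold change 1.44 to 2.41; 1.86 to 1.97 with 1 library left out). Its call was kept in 14 of 20 alternatives at 20 against 11.8 mM and in 14 of 21 at 35 against 20 mM, and that of Arrdc4 at 35 against 11.8 mM in 14 of 18. With 1 library left out, these 3 changes ranged over 0.88 to 1.04, 0.86 to 1.02 and 1.24 to 1.49. Not called were Txnip at 20 against 11.8 mM in barcode set 1, 2 or 3 alone (0.64, 1.32 and 0.91) and with only these 2 concentrations (0.95), Txnip at 35 against 20 mM in the sets (0.79, 1.10 and 0.87), and Arrdc4 in sets 2 and 3 (1.13 and 1.49). Single sets hold fewer reads.

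The main fit called 84 genes at 35 against 11.8 mM and 18 at 20 against 11.8 mM. It called 3 at 35 against 20 mM and 1 for the difference between the steps. Genes called at 35 against 11.8 mM numbered 148 without a filter and 12, 42 and 39 in the sets. At 20 against 11.8 mM they numbered 51 without a filter, 2 and 8 in sets 1 and 2, and 11 with only 2 concentrations. There, DESeq2 gave 57 and the acinar covariate 11. At 35 against 20 mM each set gave 1. For the difference between the steps the number was 4 without a filter, 2, 0 and 0 in the sets, 3 with DESeq2, 0 with the acinar covariate, 0 with the replicate block and 2 without the unlike sub-libraries. Leaving out 1 library gave 41 to 138, 7 to 35, 1 to 7 and 0 to 2 in the 4 contrasts. The Txnip share moved to 49.8% and 36.8% at 11.8 mM and 67.3% and 50.3% at 20 mM in sets 1 and 2, and to 71.2% and 63.4% at 35 mM in sets 2 and 3; leaving out 1 library gave 43.3% to 45.4%, 53.0% to 58.4% and 66.6% to 68.0%.

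Signs turned for values near 0. The difference between the steps of Txnip was 0.0013 with DESeq2 size factors, 0.0034 without a filter, 0.0092 with 10 CPM in 3 libraries, 6.5e-05 with the replicate block, 0.15 in set 1, 0.024 without the unlike sub-libraries and -0.18 to 0.14 with 1 library left out. Arrdc3 at 35 against 20 mM was -0.0026 with the block, -0.0025 without the 20 most abundant genes, -0.65 in set 2, -0.12 without the unlike sub-libraries and -0.26 to 0.22 with 1 library left out. It was -0.15 in set 3 and -0.036 to 0.31 with 1 library left out at 20 against 11.8 mM, and -0.012 without the unlike sub-libraries and -0.085 to 0.40 with 1 library left out at 35 against 11.8 mM. Arrdc1 at 35 against 11.8 mM was -0.26 to 0.055 with 1 library left out. The cause was not tested.

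Libraries share only a replicate number (same-number correlations -0.146 to 0.0459). With the block, Txnip stood at 1.90, 0.95 and 0.95 and Arrdc4 at 1.38 (35 against 11.8 mM), all called by edgeR. A filter of 10 CPM left no Arrdc gene, single sets dropped some members, and DESeq2 gave Arrdc4 no adjusted p at 35 against 11.8 mM. Low read numbers limit Arrdc1, Arrdc2, Arrdc3 and Arrdc4.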
